A study of Mus musculus with 2 samples.

Results

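Klf2-high endothelial cells of the mouse heart at E11.5 (embryonic day) are described here in 2 droplet single-cell libraries, 1 from control embryos and 1 from embryos with Hand2 deleted in the endocardium (H2CKO). They were chosen by measured values. A barcode (the tag of 1 droplet, taken as 1 cell) had to be among those for which the authors deposited embedding coordinates. It had to hold at least 1 UMI (unique molecular identifier, 1 counted mRNA molecule) of at least 4 of the 6 endothelial genes Pecam1, Cdh5, Tie1, Emcn, Egfl7 and Esam. Its UMIs of the cardiomyocyte genes Tnnt2, Myh6, Myh7, Actc1 and Myl7 together had to be under 2% of all its UMIs, and its Klf2 level had to be at least 1000 CPM (UMIs of a gene per 1000000 UMIs of the same barcode). Of 11640 barcodes with coordinates, 360 met the rule: 176 of 5408 in the control and 184 of 6232 in H2CKO. They are called members below, and no barcode sequence was shared between the members of the 2 libraries (15 were shared among all barcodes with coordinates).

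Whole hearts were dissociated and sequenced with 3′ chemistry. Control embryos were Hand2fx/+ R26RmTmG/wt, so they carried 1 floxed Hand2 allele and no Cre is listed for them. H2CKO embryos were Nfatc1Cre/wt Hand2fx/fx R26RmTmG/wt. In both, the mTmG reporter at R26R gives membrane Tomato until Cre acts and membrane GFP afterwards. The libraries therefore differ in Cre as well as in Hand2, and Nfatc1Cre acts where Nfatc1 is or was expressed, which includes the endocardium. The number and sex of the embryos behind each library are not given in the sources used here. Each genotype is represented by a single library, so no difference below could be checked against replicates and no test was made. All 95% intervals (exact Poisson for levels, exact Clopper-Pearson binomial for shares, exact conditional for ratios) cover counting error only. In such sums, fewer cells of a kind and less RNA per cell cannot be told apart.

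Klf2 encodes a zinc-finger transcription factor whose transcription in endothelium rises with fluid shear stress through a kinase cascade that ends on MEF2 factors. In the heart the endocardium, which lines the chambers and covers the valve-forming cushions, has its highest Klf2 where blood flow is fast, and Klf2 and its relative Klf4 act there upstream of Wnt9b in valve remodelling. The endocardium also signals to the myocardium through Notch receptors, neuregulin and the matrix, and HAND2 is a basic helix-loop-helix factor of the endocardium downstream of Notch.

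Promoter sequence is shown for Klf2, which defines the members, and for 3 genes with the largest ratios between Klf2-high and other endothelial barcodes: the transcription factor Klf4, the secreted ligand Wnt9b and Cyp26b1, an enzyme that degrades retinoic acid. Each line gives the 250 bases before the annotated transcription start, 5′ to 3′ on the gene's strand, from RefSeq on GRCm38.p6. Capitals mark matches, on either strand, to the core of KLF binding sites (CACCC, or GGGTG on the other strand) and to the MEF2 motif. Of Klf2 and the 10 genes highest in members, 9 of 11 had a promoter in the table.
Klf2, chr8:72318812-72319061, plus strand: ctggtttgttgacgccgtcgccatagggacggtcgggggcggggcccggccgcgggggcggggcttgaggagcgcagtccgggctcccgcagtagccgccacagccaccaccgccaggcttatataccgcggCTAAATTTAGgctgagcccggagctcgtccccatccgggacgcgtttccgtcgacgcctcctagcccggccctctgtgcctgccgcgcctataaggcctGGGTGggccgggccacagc
Klf4, chr4:55532476-55532725, minus strand: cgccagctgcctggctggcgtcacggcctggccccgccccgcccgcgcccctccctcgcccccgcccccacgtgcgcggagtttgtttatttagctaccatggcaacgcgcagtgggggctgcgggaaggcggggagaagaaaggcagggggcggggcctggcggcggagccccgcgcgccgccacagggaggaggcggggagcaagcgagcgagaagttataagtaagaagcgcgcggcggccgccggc
Wnt9b, chr11:103749822-103750071, minus strand: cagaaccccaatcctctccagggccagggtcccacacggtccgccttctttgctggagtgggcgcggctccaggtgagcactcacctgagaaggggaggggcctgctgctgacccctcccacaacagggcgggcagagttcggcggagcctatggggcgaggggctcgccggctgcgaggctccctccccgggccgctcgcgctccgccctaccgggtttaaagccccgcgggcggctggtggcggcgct
Cyp26b1, chr6:84593811-84594060, minus strand: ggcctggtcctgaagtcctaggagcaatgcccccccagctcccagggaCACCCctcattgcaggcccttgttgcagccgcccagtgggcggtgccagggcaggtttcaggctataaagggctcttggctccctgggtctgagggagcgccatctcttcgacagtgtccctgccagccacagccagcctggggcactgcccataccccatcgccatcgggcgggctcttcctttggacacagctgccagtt
The Klf2 promoter held 1 MEF2 match, starting 118 bases before the transcription start, and 1 KLF core match, starting 19 bases before it; the matches do not overlap. Cyp26b1 had 1 KLF core match 202 bases before the start, and Klf4 and Wnt9b had no match to either motif in this window. A KLF core match was found in 51.3% and a MEF2 match in 3.01% of all 27025 promoters of this length. These matches describe letters and do not show binding.

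The members held 3479272 UMIs in the control and 2563117 in H2CKO. The median member had 14716 UMIs and 4204 genes in the control and 12082 UMIs and 3437 genes in H2CKO, and a median of 3.65% and 5.09% of its UMIs were mitochondrial. H2CKO members were thus shallower and had a higher mitochondrial share. Levels below are UMIs of a gene summed over a class of barcodes and scaled to 1000000 UMIs of that class, also in CPM; a level per barcode is named as such.

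Endothelial markers outside the rule (Kdr, Tek, Eng, Cldn5, Ramp2, Plvap, Flt1 and Ecscr) were checked next, with the caution that they go together with the 6 genes of the rule. The median member had a UMI of 6 of these 8 genes in each library, and 175 of 176 control and 183 of 184 H2CKO members had at least 3. Their summed level was 2945 CPM in control and 2864 CPM in H2CKO members, against 24.0 and 14.6 CPM in cardiomyocyte barcodes, defined by at least 2% of UMIs from the 5 cardiomyocyte genes and at most 1 of the 6 endothelial genes. A UMI of Npr3 or Nfatc1, which mark endocardium, was found in 92.6% of control members (95% interval 87.7 to 96.0) and 76.6% of H2CKO members (69.8 to 82.5). With the same members thinned to 5000 UMIs (3 H2CKO members were too shallow) these shares were 81.8% and 58.0%. Thinned Klf2-low barcodes were at 77.2% and 45.7%, mesenchyme barcodes (at least 4 of 8 mesenchymal markers and at most 1 of the 6 endothelial genes) at 14.1% and 6.82%, and cardiomyocyte barcodes, with median depths of 24688 and 17447 UMIs, at 1.93% and 1.09%. The share was thus highest in endothelial barcodes of both libraries, Klf2-high or not. Npr3 and Nfatc1 were themselves lower in H2CKO members, so fewer endocardial cells and lower levels of these 2 genes cannot be told apart in the shares.

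Markers of other cell types were then summed. The 8 cardiomyocyte markers outside the rule summed to 1627 CPM in control and 1274 CPM in H2CKO members, and to 28501 and 29016 CPM in cardiomyocyte barcodes. Of these 8, 1 was at least 2-fold higher in H2CKO members (Nppa) and 1 at least 2-fold lower (Ttn). The 8 mesenchymal markers summed to 1003 CPM in control and 315 CPM in H2CKO members; at least 3 of them were seen in 48.3% of control and 15.8% of H2CKO members. White blood cell markers were at 10.3 and 83.9 CPM, and 75 H2CKO UMIs of C1qb, a complement gene of macrophages, came from 1 barcode. Erythroid markers, mainly globins, summed to 3695 CPM in control and 5280 CPM in H2CKO members, against 3143 and 3951 CPM in cardiomyocyte barcodes, and every member had a UMI of at least 3 of these 7 genes; their part in the results was not tested. Platelet markers summed to 14.4 and 25.8 CPM and epicardial markers to 73.9 and 21.5 CPM.

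Klf2 itself, on which the members were chosen, had a lowest, median and highest level of 1003, 2040 and 6701 CPM per barcode in control members and of 1001, 2187 and 8334 in H2CKO members. Just outside the threshold, from 900 to 1000 CPM, lay 12 control and 9 H2CKO barcodes, and just inside, from 1000 to 1100, lay 13 and 14. The nearest values were 999 and 1003 in the control and 996 and 1001 in H2CKO, so the threshold divides a continuous range.

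**Figure D1:**
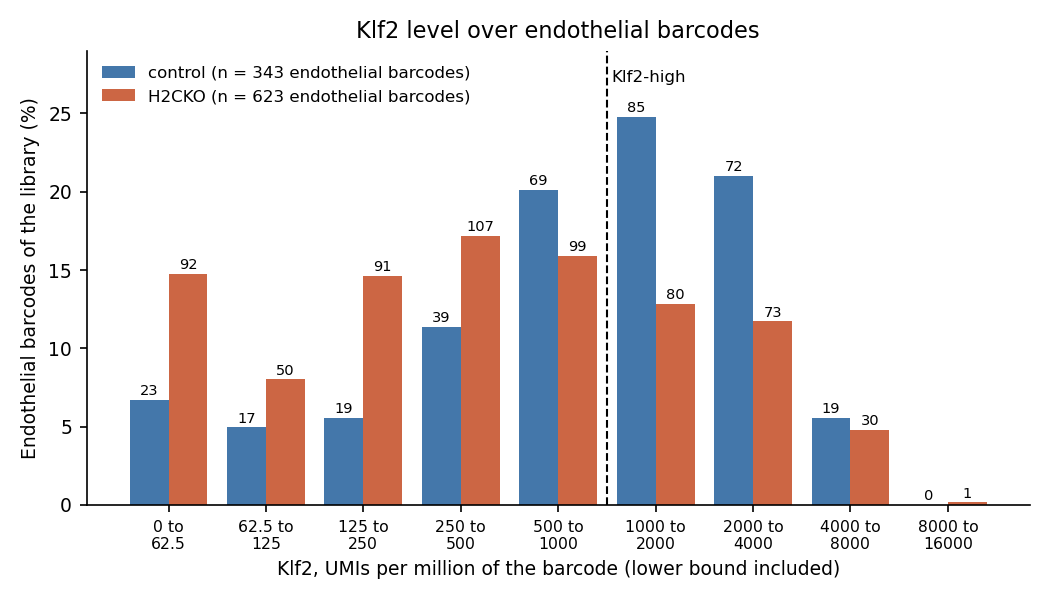
Share of the endothelial barcodes of each library (y axis, percent; numbers of barcodes above the bars) by Klf2 level (x axis, CPM of the barcode; bins double in width). The dashed line is the threshold at 1000; 176 of 343 control and 184 of 623 H2CKO barcodes lie to its right.

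Endothelial barcodes, which met every part of the rule except that on Klf2, numbered 343 in the control and 623 in H2CKO. Klf2-high members were 51.3% of them in the control (95% interval 45.9 to 56.7) and 29.5% in H2CKO (26.0 to 33.3), a difference of -21.8 percentage points (-28.2 to -15.2). The share was lower in H2CKO although members were nearly as frequent among all barcodes with coordinates (3.25% and 2.95%), since endothelial barcodes made up 6.34% of these in the control and 10.0% in H2CKO. Among endothelial barcodes with a UMI of Npr3 or Nfatc1 the shares were 51.6% and 31.1%. When all barcodes were thinned to 5000 UMIs before the rule was applied, only 195 control and 442 H2CKO barcodes still passed as endothelial, and 109 (55.9%) and 119 (26.9%) of them were Klf2-high. These 109 and 119 are called the thinned set below; the set differs from the members both in depth and in which barcodes it holds. At a threshold of 2000 CPM the difference was -9.84 percentage points. With at least 3 or at least 5 of the 6 endothelial genes required it was -16.7 and -23.5. Emcn, 1 of these 6 genes, was itself seen in more H2CKO barcodes. Thinned to 5000 UMIs, it was found in 45.5% of control and 87.4% of H2CKO Klf2-low barcodes, and in 18.2% and 35.9% of members. Its part in the number of endothelial barcodes was not tested.

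The state was described within each library by setting members against Klf2-low endothelial barcodes (167 control and 439 H2CKO). Since Klf2 divided these classes, the contrast describes the members and supports nothing. The ratio is the log2 of CPM plus 5 in members over CPM plus 5 in Klf2-low barcodes, which understates the change of low genes, and a gene counts as higher or lower only where this ratio is at least 1 in size (2-fold) in both libraries. Of 5790 genes with at least 20 CPM and 20 UMIs in the higher class of each library, 121 were higher in members (2.09%) and 74 were lower (1.28%).

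Of 20 flow-response genes listed, 15 passed this minimum and 9 were higher in members of both libraries: Klf2, Klf4, Klf6, Nos3, Thbd, Heg1, Wnt9b, Aqp1 and Slc9a3r2. Klf2 is fixed by the rule, which leaves 8 of 14 genes. Klf4, the Klf2 relative that responds to the same flow signals, was at 609 CPM in members and 120 CPM in Klf2-low barcodes of the control, and at 380 and 36.1 CPM in H2CKO. Nos3, endothelial nitric oxide synthase, was at 168 and 70.4 CPM in the control and at 140 and 62.3 CPM in H2CKO. Thbd, the anticoagulant receptor thrombomodulin, was at 44.0 and 7.22 CPM in the control and at 28.9 and 8.30 CPM in H2CKO. Piezo1, a stretch-gated channel, did not reach 2-fold in either library (log2 ratios of 0.72 and 0.70). Edn1, which encodes endothelin-1, was higher in control members (232 against 95.2 CPM) and not in H2CKO members (213 against 173 CPM).

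The genes with the largest ratio to Klf2-low barcodes, taken as the smaller of the 2 libraries, were Cyp26b1, Wnt9b, Klf4, Pthlh, Aqp1, Stmn2, Emp1, Wnt4, Cdo1 and Nts, among them the secreted signals Wnt9b, Wnt4, Pthlh and Nts. Cyp26b1 was at 165 CPM in members and 23.2 CPM in Klf2-low barcodes of the control, and at 105 and 2.31 CPM in H2CKO. Wnt9b was at 86.8 and 12.6 CPM in the control and at 63.2 and 1.38 CPM in H2CKO, and in cardiomyocyte barcodes it was at 0.0639 and 0.0520 CPM. Wnt4, another Wnt ligand, was at 553 and 135 CPM in the control and at 373 and 35.4 CPM in H2CKO. For each of these 3 genes the classes lay further apart in H2CKO than in the control. Pthlh, a secreted peptide related to parathyroid hormone, was at 160 and 28.6 CPM in the control and at 113 and 8.30 CPM in H2CKO. Aqp1, a water channel, was at 252 and 50.3 CPM in the control and at 218 and 15.1 CPM in H2CKO. The log2 ratios of Stmn2, Emp1, Cdo1 and Nts lay between 1.98 and 2.96 over both libraries.

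Other lists were also divided. Immediate-early and stress genes, which respond within minutes to stimuli including cell dissociation, were higher in members for 11 of 17 genes, among them Fos (702 against 191 CPM in the control, 583 against 119 in H2CKO), Jun (1225 against 421, and 910 against 220) and Atf3 (357 against 78.7, and 335 against 87.3). Their summed level was 7100 CPM in control and 6789 CPM in H2CKO members, and 3524 and 3831 CPM in Klf2-low barcodes. Whether dissociation had a part in the Klf2 level was not tested. Of the endocardial identity list, Nfatc1, the calcineurin-dependent factor of valve endocardium, was higher in members (295 against 106 CPM, and 149 against 53.4), while the natriuretic peptide receptor Npr3 (90.5 against 238, and 26.9 against 74.7) and the adhesion receptor Adgrg6 were lower. Nrg1, the neuregulin that acts on ERBB receptors of the myocardium, was higher in members of both libraries (185 against 66.3 CPM, and 106 against 32.0), as were the Notch ligand Jag1 and the hyaluronan synthase Has2. None of 13 S-phase genes and none of 15 G2/M genes was on one side by 2-fold in both libraries, but the cyclin D genes Ccnd1 (80.8 against 221 CPM, and 75.3 against 238) and Ccnd2 were lower in members, named after their values were seen.

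The 10 genes with the lowest ratios were Cox6a2, Myl7, Sh3bgr, Nebl, Actc1, Smpx, Pln, Ttn, Fabp3 and Csrp3, which are known from heart and muscle. Myl7 and Actc1 are in the rule. Of the 8 cardiomyocyte markers outside the rule, 6 were lower in members, and their sum in Klf2-low barcodes was 4640 CPM in the control and 3082 CPM in H2CKO. The count of lower genes followed the limit on cardiomyocyte genes, with 26 genes at a limit of 1% and 150 at 5%. Without the barcodes in the top 5% of doublet scores, which were 3 control and 2 H2CKO members and 19 and 44 Klf2-low barcodes, it was 28.

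Levels were then followed over the Klf2 range. Control endothelial barcodes with Klf2 from 1000 to 2000, from 2000 to 4000 and above 4000 CPM numbered 85, 72 and 19, and H2CKO barcodes 80, 73 and 31. Klf4 was at 310, 798 and 1208 CPM over these 3 bins in the control and at 176, 461 and 711 CPM in H2CKO, so it rose with Klf2 in both and was lower in H2CKO in each bin. Wnt9b was at 69.1, 103 and 106 CPM in the control and at 15.4, 80.6 and 145 CPM in H2CKO: the libraries differed in the lowest of the 3 bins and their intervals overlapped in the other two. Nrg1 was at 141, 212 and 277 CPM in the control and at 29.9, 122 and 263 CPM in H2CKO, and its intervals overlapped only in the highest of the 3 bins. Aqp1 was at 198, 299 and 315 CPM in the control and at 59.8, 261 and 524 CPM in H2CKO, so it was lower in H2CKO at the bottom of the members' range and higher at its top. The top control values rest on 19 barcodes. Npr3 went the other way, with 118, 69.1 and 50.4 CPM in the control and 48.0, 12.6 and 6.99 CPM in H2CKO. Edn1 was at 170, 283 and 313 CPM in the control and at 217, 191 and 252 CPM in H2CKO, and it was at 67.9 and 167 CPM in barcodes under 250 CPM of Klf2. From the lowest to the highest bin it thus climbed more steeply in the control than in H2CKO. Hand2 was at 244, 247 and 232 CPM in the control, with overlapping intervals, and at 170, 185 and 213 CPM in the 3 bins under 1000 CPM, so it was lower in the lowest bins than in members. GFP-marked barcodes were 63.8%, 82.2% and 96.8% of H2CKO barcodes in these bins, where GFP-marked means more GFP UMIs than any control member had (5). Among GFP-marked barcodes alone, Wnt9b was at 19.7, 91.3 and 146 CPM and Nrg1 at 38.1, 131 and 266 CPM, close to the values for all H2CKO barcodes.

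**Figure D2:**
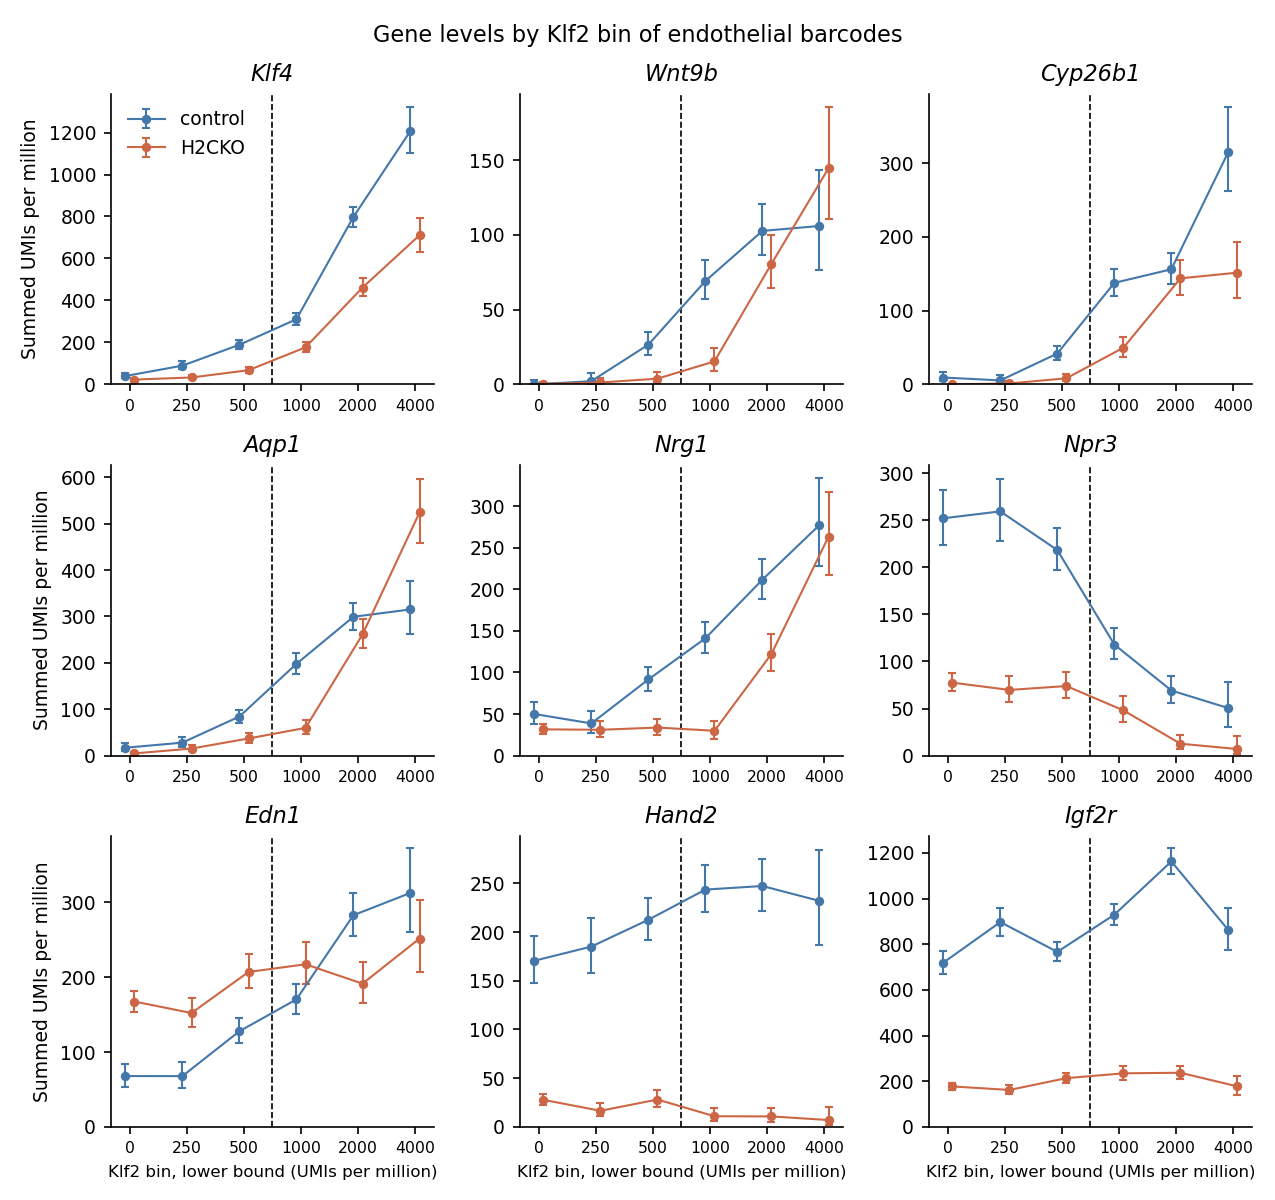
Summed level in CPM (y axis) of 9 genes over 6 bins of Klf2 level (x axis, lower bound of each bin in CPM), control in blue and H2CKO in orange, with exact 95% Poisson intervals. Barcodes to the right of the dashed line are members; Klf4 rises with Klf2 in both libraries, and Hand2 and Igf2r stay low in H2CKO over the whole range.

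Hand2, the deleted gene, was measured first between genotypes. Control members had 848 Hand2 UMIs (244 CPM, 95% interval 228 to 261) in 141 of 176 barcodes, and H2CKO members had 26 UMIs (10.1 CPM, 6.63 to 14.9) in 18 of 184. With the same members thinned to 5000 UMIs, a Hand2 UMI was seen in 56.2% of control and 3.87% of H2CKO members, and in 33.4% and 31.8% of cardiomyocyte barcodes. The level was 24.0-fold lower in H2CKO (16.3 to 37.0), a log2 ratio of -4.04 on the CPM plus 5 scale. In Klf2-low barcodes it went from 193 to 25.1 CPM (log2 ratio of -2.72), and in cardiomyocyte barcodes from 83.6 to 75.9 CPM. Which part of Hand2 the floxed allele spans is not given in the labels. GFP was at 19.5 CPM in control and 1662 CPM in H2CKO members, and 141 of 184 H2CKO members (76.6%, 69.8 to 82.5) were GFP-marked, against 57.2% of H2CKO Klf2-low barcodes and 0.397% of H2CKO cardiomyocyte barcodes. Tomato went from 23.3 to 1.56 CPM in members and was lower also in cardiomyocyte barcodes (log2 ratio of -1.15). The control thus carried 68 GFP UMIs without a listed Cre, and these set the limit for GFP-marked barcodes.

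Of 6633 genes with at least 20 CPM and 20 UMIs in the higher library, 59 were at least 2-fold higher in H2CKO members (0.889%) and 295 at least 2-fold lower (4.45%). These shares of all genes stand beside each count by gene list below. The median log2 ratio of all 6633 was -0.20, and with ratios centred on it 109 genes were higher and 130 lower; centring evens out the signs by its construction. Cardiomyocyte barcodes had a median of -0.17 and Klf2-low barcodes of -0.25 over the same genes. To find differences that exceeded those of cardiomyocyte barcodes, where Hand2 differed little, genes were kept whose ratio lay at least 1 further in the same direction and whose interval excluded 1. This left 36 higher and 63 lower genes, of which 26 and 44 were past 2-fold in Klf2-low barcodes as well, with medians of 1.42 in members and 1.47 in Klf2-low barcodes for the higher genes and of -1.49 and -1.47 for the lower. Other genes differed about as strongly in cardiomyocytes as in members: Gm10260 (315 to 1.56 CPM) and Rpl29 (309 to 1430 CPM), named after their values were seen, had log2 ratios of -6.10 and 1.88 there. Whether both libraries were counted with the same annotation and program version is not given in the sources used here, so for such genes a difference in counting and one between the embryos cannot be told apart. Longer genes had lower ratios (Spearman's rho of -0.45 across 6631 genes with a known span, which are not independent and share both libraries), and with that trend removed 61 genes were higher and 229 lower.

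**Figure D3:**
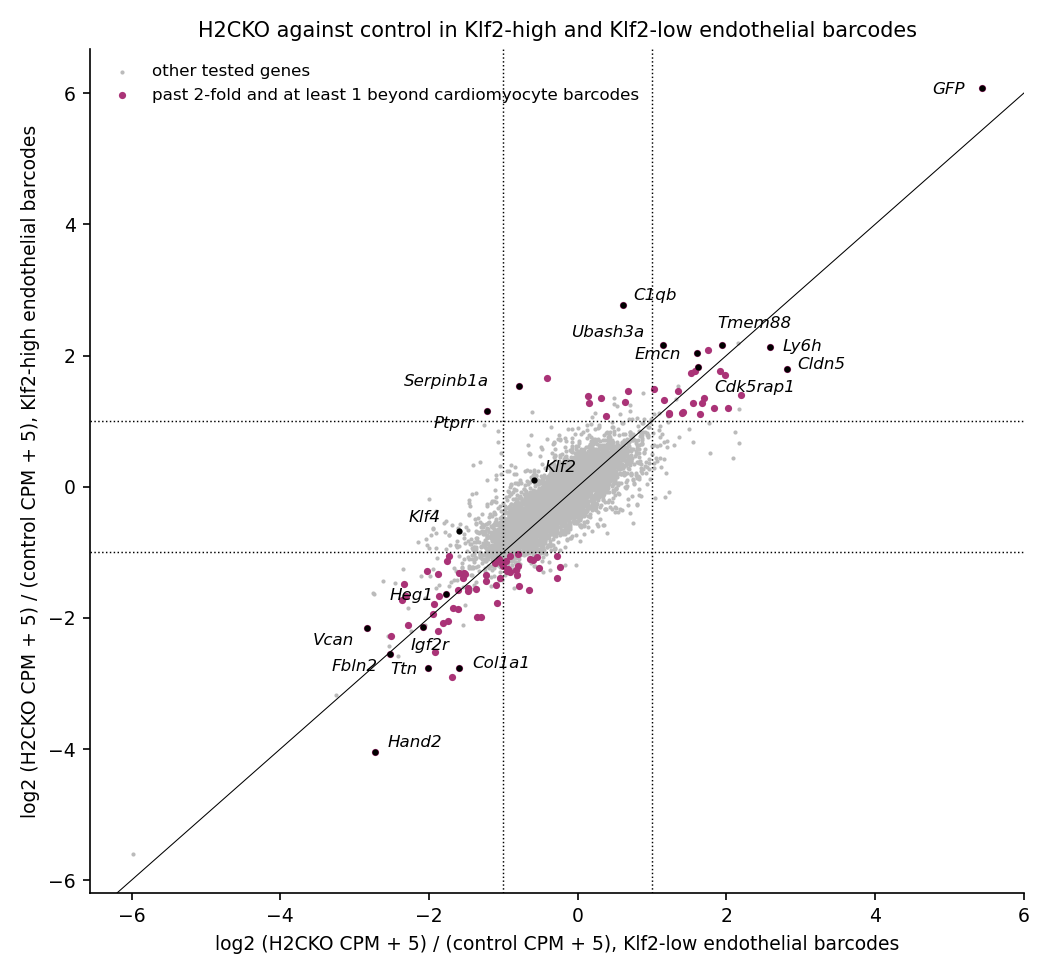
Log2 ratio of CPM plus 5 in H2CKO over control for 6633 genes, in Klf2-low endothelial barcodes (x axis) and Klf2-high members (y axis). Dotted lines mark 2-fold, the solid line marks equal ratios, purple points are the 36 higher and 63 lower genes that exceed cardiomyocyte barcodes by at least 1, and black points are labelled genes; Hand2 lies at -2.72 and -4.04 and Serpinb1a at -0.79 and 1.54.

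Among the lower genes that exceeded cardiomyocyte barcodes by at least 1, those with the largest ratios in members were, after Hand2, Myh6, Ttn, Col1a1, Fbln2, Tnc, Sox9 and Gpc3. Myh6 is among the cardiomyocyte genes that the rule limits and that define cardiomyocyte barcodes, so its ratio is a description only. Fbln2, a matrix glycoprotein of the cushions, went from 319 to 50.3 CPM (6.33-fold lower, 5.27 to 7.66), with log2 ratios of -2.55 in members, -2.52 in Klf2-low barcodes and -1.53 in cardiomyocytes. Sox9, a transcription factor of cushion cells, went from 110 to 18.7 CPM, and the matrix protein gene Tnc from 37.1 to 2.34 CPM. Gpc3, a heparan sulfate proteoglycan, went from 70.1 to 11.3 CPM, a log2 ratio of -2.20 that was -0.84 in the thinned set. Each of these genes was lower in both classes of endothelial barcodes. Single barcodes weighed on other genes: 1 barcode held 38.3% of the control UMIs of the myosin gene Myh6 and another 29.4% of those of the titin gene Ttn, and Col1a1 UMIs came from 35 control and 2 H2CKO members. Without the barcode with the most UMIs in each library, the log2 ratio of Ttn was -3.03, that of Col1a1 -3.14 and that of Myh6 -2.48. In the thinned set that of Col1a1 was -0.89, under 2-fold. Nppa, another cardiomyocyte marker, was higher in H2CKO members, with a log2 ratio of 1.24, or 1.68 in the thinned set and -0.20 relative to cardiomyocyte barcodes.

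Endocardial identity genes were lower in H2CKO members for 6 of 15 genes and higher for none, with a median log2 ratio of -0.80 in members and -1.12 in Klf2-low barcodes, beside -0.20 for all genes. Both the count and the median include Hand2, the deleted gene, without which 5 of 14 genes were lower. Tbx20, a T-box factor of endocardium and myocardium, went from 305 to 107 CPM (2.84-fold lower, 2.48 to 3.25), but relative to cardiomyocyte barcodes its log2 difference was -0.64, under 2-fold. Npr3 went from 90.5 to 26.9 CPM (3.36-fold lower, 2.58 to 4.43) and stayed past 2-fold relative to cardiomyocytes (-1.28). The cadherin gene Cdh11 went from 125 to 46.0 CPM with a like ratio in cardiomyocytes (-1.35 and -1.26), where it was seen in only 4.79% and 1.51% of thinned barcodes. Adgrg6 (log2 ratio of -1.03) and Gata6 (-1.02) lay at the 2-fold line, below which centring put them (-0.83 and -0.82), as did the comparison with cardiomyocytes (-0.65 and -0.83). Nfatc1 itself went from 295 to 149 CPM (1.98-fold lower, 1.76 to 2.24), short of 2-fold on the log2 scale used, and Gata4 from 213 to 121 CPM. Only H2CKO embryos carried the Nfatc1Cre allele, so for Nfatc1 a difference from that allele and one from Hand2 cannot be told apart. Plvap, a component of endothelial diaphragms, was at 306 and 292 CPM, with an interval of the ratio that held 1.

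Signals from endocardium to myocardium were lower for 2 of 11 genes and higher for none, with a median of -0.73 in members and -0.66 in Klf2-low barcodes. Vcan, the hyaluronan-binding proteoglycan of cardiac jelly, went from 1294 to 286 CPM (4.52-fold lower, 4.18 to 4.90), against a log2 ratio of -1.07 in cardiomyocytes. Has2, which makes hyaluronan, went from 149 to 44.9 CPM (3.31-fold lower, 2.70 to 4.09), with a log2 difference of -0.81 relative to cardiomyocytes, where Vcan was at -1.09. Both matrix genes were lower also in Klf2-low barcodes, with log2 ratios of -2.84 and -2.76. Nrg1 went from 185 to 106 CPM (1.74-fold lower, 1.51 to 2.02), under the 2-fold line in members and past it in the thinned set (log2 ratio of -1.45). Of 8 Notch genes, Jag1 fell from 85.7 to 29.7 CPM (log2 ratio of -1.39, or -0.92 relative to cardiomyocytes), and the target Hes1 was higher, from 105 to 220 CPM; its log2 ratio was 1.03 here, 0.71 relative to cardiomyocytes, 0.89 with GFP-marked H2CKO members alone and 0.47 in the thinned set. Notch1, the receptor, was at 254 and 143 CPM and the target Hey2 at 129 and 67.5 CPM, with log2 ratios of -0.81 and -0.88. The Notch list thus held genes on both sides.

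Cushion and mesenchymal-transition genes were lower for 4 of 13 genes (Postn, Sox9, Twist1 and Cdh2) and higher for none; in the thinned set Postn (-0.84), Twist1 (-0.97) and Cdh2 (-0.78) were under 2-fold. The list had medians of -0.70 in members, -1.01 in Klf2-low barcodes and -0.44 in cardiomyocyte barcodes. All 6 mesenchymal markers that passed the minimum were lower in H2CKO members, and 2 further markers did not pass it. In the thinned set only Col3a1 and Sox9 of the 6 stayed past 2-fold, and Col1a2 was on the other side (0.17). The summed level of all 8 was lower also in mesenchyme barcodes, from 3122 to 2039 CPM, and in cardiomyocyte barcodes, from 180 to 42.4 CPM. Relative to cardiomyocyte barcodes Col3a1, Col1a2, Postn and Twist1 of these 6 were on the other side, at log2 differences of 0.33, 0.10, 0.04 and 0.25, while Sox9 and Col1a1 stayed lower. The part of free mesenchymal RNA in these levels was not tested. Of 13 basement membrane and matrix genes, Lamc1, Fbln2, Spon1 and Nid1 were lower and none was higher. The median was -0.70 in members and -0.51 in cardiomyocyte barcodes, and relative to cardiomyocytes Lamc1 (-0.52) and Nid1 (-0.63) were under 2-fold. Spon1, a secreted adhesion protein, went from 155 to 51.9 CPM, against a log2 ratio of -0.39 in cardiomyocytes.

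**Figure D4:**
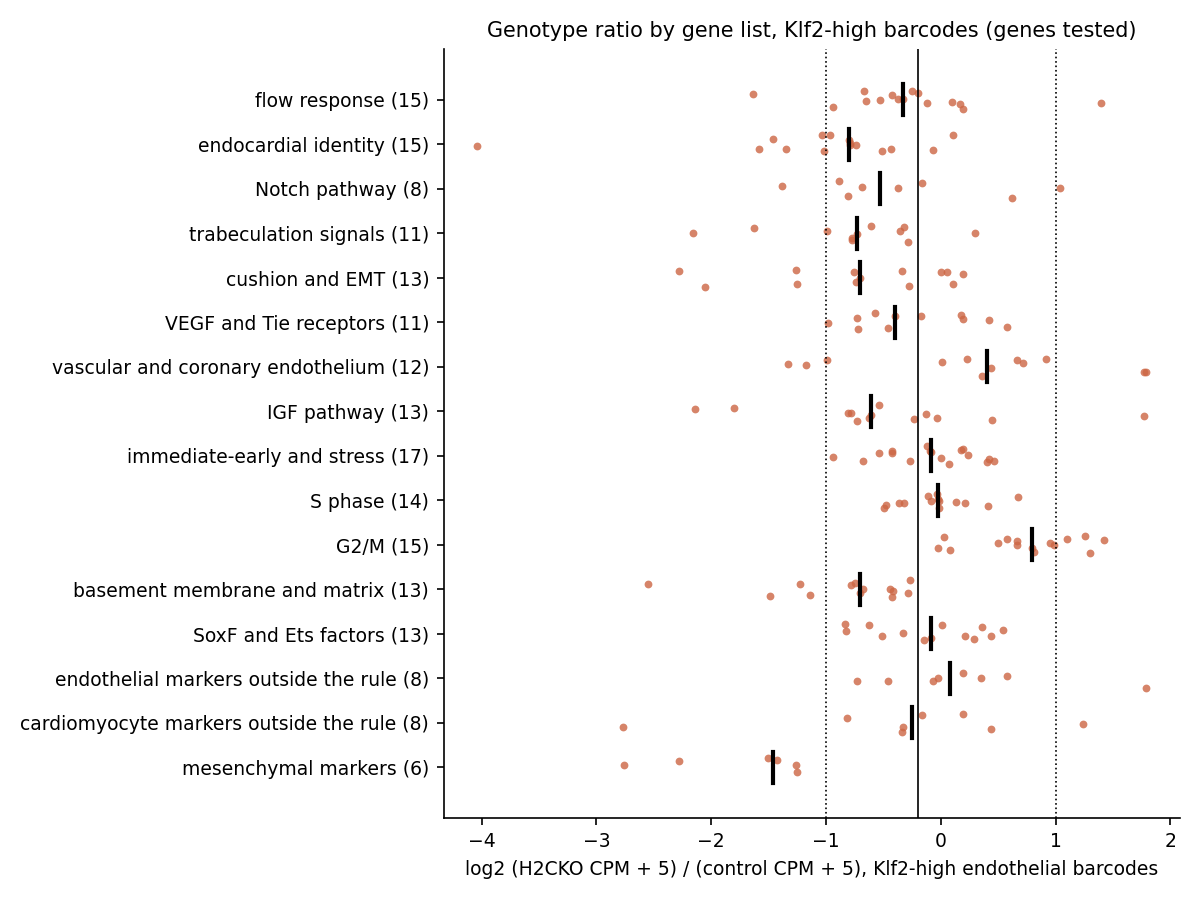
Log2 ratio of CPM plus 5 in H2CKO over control members (x axis) for each gene above the minimum in 16 gene lists (y axis, numbers of genes in brackets). Thick bars are list medians, dotted lines mark 2-fold and the solid line marks the median of all genes at -0.20; mesenchymal markers lie at a median of -1.46 and G2/M genes at 0.79.

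Flow-response genes had a median of -0.33 in members, beside -0.20 for all genes. Of 15 genes, Klf2 among them, 1 was higher (Cav1) and 1 lower (Heg1). Members of both libraries were chosen on Klf2, so this median cannot show whether genes that follow Klf2 differed between genotypes. Heg1, a transmembrane protein that restrains endocardial MEKK3 signalling, went from 287 to 89.0 CPM (3.23-fold lower, 2.79 to 3.74), with -1.77 in Klf2-low barcodes. Cav1, the caveolae protein, went from 20.4 to 61.6 CPM, with 2.19 in Klf2-low barcodes and a log2 ratio of 1.39 in members that was 0.82 in the thinned set. Klf2 could not be compared, since the rule set its minimum; it was at 2398 and 2564 CPM. Klf4 was 1.60-fold lower (1.48 to 1.73), Thbd 1.52-fold lower (1.15 to 2.04) and Nos3 1.19-fold lower (1.04 to 1.36), all short of 2-fold. Wnt9b was at 86.8 and 63.2 CPM and Aqp1 at 252 and 218 CPM, while in Klf2-low barcodes the log2 ratios of these genes were -1.47 and -1.46. Edn1 was at 232 and 213 CPM, with an interval of the ratio from 0.82 to 1.02, and in Klf2-low barcodes its log2 ratio was 0.83.

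The genes of the state were counted together, as a description. Of the 120 genes higher in members than in Klf2-low barcodes, leaving out Klf2, 3 were at least 2-fold higher and 11 at least 2-fold lower in H2CKO members. Their median log2 ratio between genotypes was -0.26 in members and -0.75 in Klf2-low barcodes, and the step between the classes was wider in H2CKO for 89 of the 120. The threshold on Klf2 was the same in both libraries, and Klf2 in Klf2-low barcodes was at 463 CPM in the control and 307 CPM in H2CKO. The 11 lower genes include Heg1, Has2, Jag1, Emp1 and Ass1, and the 3 higher ones are Serpinb1a, Ptprr and Rbp7, named after their values were seen.

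Among the higher genes in H2CKO members that exceeded cardiomyocyte barcodes by at least 1, a limit that leaves out genes such as Rpl29 (2.19), the largest ratios in members after the reporter were those of C1qb (all 75 UMIs in 1 barcode, none in the control), Tmem88, Ubash3a, Ly6h, Tm4sf1, Emcn and Cdk5rap1. Tm4sf1, a tetraspanin-like surface protein of endothelium, went from 70.4 to 314 CPM (4.46-fold higher, 3.86 to 5.17). Emcn, the sialomucin endomucin, went from 52.9 to 233 CPM (4.40-fold, 3.73 to 5.22). It is among the 6 genes of the rule, so its ratio is a description only. Ly6h went from 11.2 to 65.9 CPM (5.88-fold, 4.13 to 8.56) and Tmem88, a membrane regulator of Wnt signalling, from 3.45 to 32.8 CPM (9.50-fold, 5.16 to 19.1). The log2 ratios of Tm4sf1, Ly6h and Tmem88 were 2.08, 2.13 and 2.16, and 1.25, 1.12 and 1.205 in members with at least 2000 CPM of Klf2. Tm4sf1, Ly6h and Tmem88 were also at least 2-fold higher in Klf2-low barcodes, as was Emcn, which the rule used there too. Ubash3a, a phosphatase gene known from T cells, went from 12.9 to 74.9 CPM (5.79-fold, 4.17 to 8.20); its log2 ratio of 2.16 was 1.02 in the thinned set.

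The vascular and coronary endothelial list had a median of 0.40 in members, 0.68 in Klf2-low barcodes and -0.01 in cardiomyocytes. Of its 12 genes, Cldn5, a tight-junction claudin, rose from 6.04 to 33.2 CPM (5.49-fold, 3.38 to 9.33) and Igfbp3, an IGF-binding protein, from 5.17 to 29.7 CPM (5.73-fold, 3.39 to 10.2). In members with at least 2000 CPM of Klf2, neither was past 2-fold (log2 ratios of 0.56 and 0.77). The chemokine receptor Cxcr4 fell from 33.6 to 12.1 CPM (log2 ratio of -1.18, or -0.91 in the thinned set) and the guidance receptor Unc5b from 67.3 to 23.8 CPM. The VEGF and Tie receptor list and the SoxF and Ets list had no gene past 2-fold among 11 and 13. Of all 6633 genes 0.889% were higher and 4.45% lower, so lists of this size may well hold none. Kdr, the main VEGF receptor, was at 105 and 159 CPM.

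Members of H2CKO were divided by GFP, since not all were marked. The 141 GFP-marked members had 7.06 CPM of Hand2 (3.95 to 11.6), and the 43 others, with a median depth of 8936 UMIs against 13150, had 25.2 CPM (12.6 to 45.0), against 244 CPM in the control. Low Hand2 was thus measured in both groups. Wnt9b was at 74.8 CPM in marked and 6.86 CPM in other H2CKO members (3 UMIs), Wnt4 at 431 and 93.7 CPM, and Aqp1 at 255 and 43.4 CPM, where control members had 86.8, 553 and 252 CPM. Klf2, which the rule used, was at 2716 CPM in marked and 1829 CPM in other members, given as a description only. Nos3 was at 155 and 68.6 CPM, and Thbd at 31.5 and 16.0 CPM with an interval of the ratio that held 1. Tm4sf1 was at 270 CPM in marked and 526 CPM in other members and Cldn5 at 21.6 and 89.2 CPM, so these 2 genes were higher still without GFP. In marked members they were above the control. Emcn, which the rule used, was at 181 and 487 CPM, given as a description only. Ubash3a was at 88.4 CPM in marked and 9.15 CPM in other members. Vcan was at 294 and 245 CPM and Igf2r at 227 and 222 CPM, with intervals of the ratio that held 1. When only GFP-marked barcodes were used for H2CKO, 45 of the 48 named genes past 2-fold kept that call; C1qb, Aurka and Hes1 did not.

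**Figure D5:**
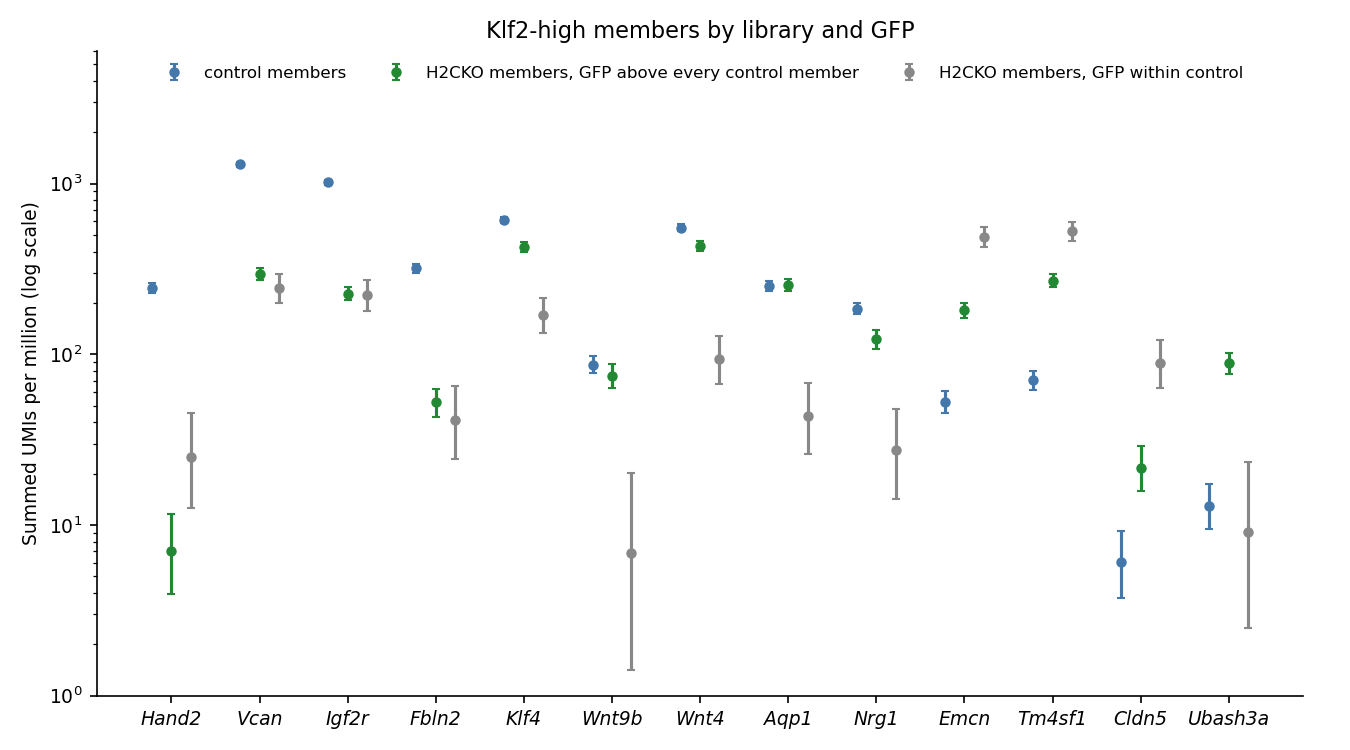
Summed level in CPM (y axis, log scale) of 13 genes in 176 control members (blue), 141 GFP-marked H2CKO members (green) and 43 other H2CKO members (grey), with exact 95% Poisson intervals. Hand2, Vcan, Igf2r and Fbln2 lie below the control in both H2CKO groups, while Wnt9b, Wnt4 and Aqp1 are lowest in the H2CKO members without GFP marking (6.86, 93.7 and 43.4 CPM).

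Insulin-like growth factor genes were lower for 2 of 13 genes and higher for 1 (Igfbp3), with a median of -0.61 in members and -0.485 in cardiomyocyte barcodes. Igf2r, the receptor that clears IGF2, had a level per barcode with a median of 937 CPM in the control and 175 in H2CKO. Summed, it went from 1016 to 226 CPM (4.50-fold lower, 4.12 to 4.92), with log2 ratios of -2.14 in members, -2.08 in Klf2-low barcodes and -0.68 in cardiomyocytes. Igf2 went from 3233 to 923 CPM, and its log2 ratio in cardiomyocytes was -1.16, so that relative to them it was at -0.65, under 2-fold.

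Cell-cycle genes divided by phase. Of 15 G2/M genes, Ube2c, Aurka, Cdc20 and Cdk1 were higher in H2CKO members and none was lower, with a median of 0.79, against 0.17 in Klf2-low and 0.01 in cardiomyocyte barcodes. Cdc20, an activator of the anaphase ubiquitin ligase, went from 60.1 to 170 CPM, and Cdk1, the mitotic kinase, from 144 to 362 CPM (2.51-fold, 2.25 to 2.80). Relative to cardiomyocyte barcodes Ube2c, Cdc20 and Aurka were under 2-fold, at log2 differences of 0.87, 0.91 and 0.79, and Cdc20 (0.99) and Aurka (0.72) were so in the thinned set. The summed G2/M level was 2312 CPM in control and 3900 CPM in H2CKO members, and 3154 and 3348 CPM in Klf2-low barcodes. With the same members thinned to 5000 UMIs, at least 4 G2/M genes were seen in 40.3% of control members (33.0 to 48.0) and 55.8% of H2CKO members (48.2 to 63.2), and in 56.3% and 52.1% of Klf2-low barcodes; unthinned, members were at 59.1% and 63.6%. The lower share was thus that of control members. None of 14 S-phase genes passed 2-fold (median of -0.02), and none of 17 immediate-early and stress genes did (median of -0.09).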

How the data were processed

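For each library a matrix of raw UMI counts was deposited by the authors, per the file headers (columns are barcodes, lines are features), along with 2 embedding coordinates per barcode (a score without a unit) for part of the barcodes. Cell Ranger 5.0.1, Seurat 4 and GRCm38.p6 are named in the submitters' processing notes without a role; the annotation and the barcode filter are not given in the sources used here. The coordinates served only to mark the barcodes used. The matrices hold 14114 control and 13885 H2CKO barcodes with 195825720 and 201477256 UMIs, and 22285 of 22401 features matched a symbol. H19 was not analysed here.

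The members, gene lists and comparisons were chosen with earlier results of these data known. The UMIs of all barcodes of a class were added up within each library and scaled to CPM. A gene entered a comparison with at least 20 CPM and 20 UMIs in the higher class, and 5 CPM were added before the log2 ratio. Cardiomyocyte barcodes served as a reference class, as did mesenchyme barcodes with at least 4 mesenchymal markers. Named genes were those of interest given whatever their value, list genes past 2-fold, the 8 highest and 8 lowest ratios between genotypes beyond cardiomyocytes, and the 10 highest and 10 lowest between Klf2-high and Klf2-low barcodes.

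Doublets were not removed beyond the rule; as an alternative, barcodes in the top 5% of Scrublet scores were left out, since its automatic threshold marked 662 control and 218 H2CKO barcodes. Other alternatives changed the Klf2, marker and cardiomyocyte limits, the barcode filter, depth (thinning to 5000 UMIs), pseudocount, minimum, scaling and gene span. With 1 library per group no model was fitted. Scripts used python 3.11.15, numpy 2.4.6, scipy 1.17.1, pandas 2.3.3, scanpy 1.11.5, scikit-learn 1.9.0 and matplotlib 3.10.9, and were tested on simulated data. Promoters came from RefSeq.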

Additional observations from a re-analysis of the deposited data

Results flagged for a closer look

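Serpinb1a, a serine protease inhibitor gene, stood apart because its difference between genotypes had opposite signs in the 2 classes of endothelial barcodes. In Klf2-high members it was at 113 CPM in the control and 338 CPM in H2CKO, a log2 ratio of 1.54, and in Klf2-low barcodes it was at 26.1 and 12.9 CPM, a log2 ratio of -0.793. Over the bins from 1000 to 2000, from 2000 to 4000 and above 4000 CPM of Klf2 per barcode, Serpinb1a was at 63.7, 155 and 176 CPM in the control and at 73.3, 447 and 760 CPM in H2CKO. A single barcode held at most 9.23% of its UMIs in a library. In the bins under 250, from 250 to 500 and from 500 to 1000 CPM of Klf2 it was at 2.55, 16.1 and 46.9 CPM in the control and at 4.47, 26.0 and 17.8 CPM in H2CKO. Intervals overlapped in the first 2 of these bins, and in the bin from 500 to 1000 CPM H2CKO was lower (11.8 to 25.8, against 37.4 to 58.2 in the control). These 3 bins held 59, 39 and 69 control and 233, 107 and 99 H2CKO barcodes. The Klf2-low barcodes of the 2 libraries thus differ in Klf2 as well, and the part of this in the ratio of -0.793 was not tested. The difference between the classes was not tested, since each genotype has 1 library, and Serpinb1a was picked out after its values were seen.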

How the results depend on the processing

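No paired analysis was possible because each genotype has 1 library. The share of Klf2-high barcodes stayed lower in H2CKO in all alternatives run; it differed by -9.837 percentage points at a Klf2 threshold of 2000 and by -28.97 after thinning to 5000 UMIs, which also reselects the members (109 and 119). Hand2 stayed lower in all, at -3.441 with a threshold of 500, -3.787 thinned, -3.841 centred on the median gene and -3.906 relative to cardiomyocyte barcodes. Genes higher in H2CKO numbered 91 at a threshold of 2000, 124 thinned, 20 with a minimum of 100 CPM, 90 with no minimum and 109 centred. Lower genes numbered 477 thinned and 477 with a pseudocount of 1 CPM, 101 with a minimum of 100 CPM, 130 centred and 76 relative to cardiomyocytes. Genes higher in members than in Klf2-low barcodes numbered 58 with a minimum of 100 CPM. Lower genes there numbered 14 at a threshold of 500, 30 with 5 markers, 26 and 150 with cardiomyocyte limits of 1% and 5%, 19 thinned, 28 without top doublet scores and 28 with a minimum of 100 CPM. A higher minimum leaves fewer genes; the other causes were not tested. Of 48 named genes past 2-fold, 34 kept that call thinned and 27 relative to cardiomyocytes. Signs turned for Upk3b at a threshold of 2000 (0.3245), Col1a2 thinned (0.1736) and, relative to cardiomyocytes, Col3a1 (0.3338), Postn (0.04267), Nppa (-0.2025), Upk3b (0.3293), Col1a2 (0.1048) and Twist1 (0.2495). Using only GFP-marked H2CKO barcodes, only barcodes with Npr3 or Nfatc1, or leaving out the top barcode of a gene was chosen after seeing the data. At these depths a gene under 20 CPM in both libraries gave no usable ratio.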
